A study of Danio rerio with 3 samples.

Results

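The genes described here are those of the mitotic spindle, the kinetochore and the kinesin motors. They were taken by gene symbol from a table of 35117 zebrafish genes: symbols beginning with kif and a digit, cenp and a letter, ndc80, nuf2, spc24, spc25, bub1, bub3, mad1l, mad2l, aurk, plk1 to plk4, tpx2, incenp or birc5. This gave 76 genes, and the rule uses symbols and no measured value. RNA had been sequenced from whole, untreated wild-type zebrafish embryos collected 10 or 6 hours post fertilization (hpf), when gastrulation ends or begins. The 10 hpf stage had 2 libraries and the 6 hpf stage had 1 library. The labels give neither the number of embryos per library nor whether the 10 hpf libraries came from separate clutches.

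Kinesins are motor proteins that walk along microtubules or take their ends apart. Mitotic kinesins build the spindle, move chromosomes and lay out the plane of cytokinesis, while transport kinesins carry vesicles, organelles and ciliary cargo. Kinetochores assemble on centromeric chromatin and hold chromosomes to spindle microtubules. The spindle assembly checkpoint delays anaphase until they are attached, and the Aurora and Polo-like kinases time and correct these steps. Zebrafish embryos make their first cleavages with maternal products and go on dividing through gastrulation at a slower pace. The roles named below were worked out largely in human and other animal cells.

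Levels were deposited as RPKM, a measure of reads that is corrected for gene length and for the total number sequenced, with 1 value at 10 hpf covering both libraries and 1 value at 6 hpf. The spacing of the lowest values gave a total of 23243189 reads for 10 hpf, where 1 RPKM is 23.2 reads per kilobase, and of 16991524 reads for 6 hpf, where it is 17.0. With 1 RPKM value per stage, no spread between replicates could be computed, and no difference below has a replicate check made here. How the deposited false discovery rate used the 2 libraries at 10 hpf is not stated in the sources used here. At 6 hpf there was no second library. Because whole embryos were sequenced, fewer dividing cells and less RNA per dividing cell cannot be told apart. A gene was regarded as called if the authors' deposited table gave it an empirical false discovery rate under 0.05, and "fell" and "rose" are kept for such genes. In the authors' deposited table the log2 fold is offset from the RPKM values, by a median of −0.60 against their log2 ratio, so that modest decreases were called more readily than increases of the same size.

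The module was well expressed at both stages. At 5 RPKM or more at either stage stood 46 of the 76 genes, at 1 RPKM or more 59, and the other 17 stayed below 1 RPKM at both. The most abundant at 10 hpf were the mitotic kinase gene plk1, with 125 RPKM against 123 RPKM at 6 hpf, and the spindle assembly factor gene tpx2, with 123 RPKM against 113 RPKM at 6 hpf. At 6 hpf the checkpoint gene mad2l1 stood first, with 152 RPKM, and at 10 hpf it had 82.8 RPKM. Summed over the 76 genes, levels came to 1460 RPKM at 10 hpf and 1845 RPKM at 6 hpf, a ratio of 0.791. The sum over all genes of the table had a ratio of 1.01, which scaling to total reads tends to keep near 1. Such sums rest mostly on the abundant genes.

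Of the 76 genes, 25 were called lower and 4 higher at 10 hpf in the authors' deposited table, and 47 were not called. Over all 35117 genes 19.8% were called lower and 9.7% higher, but most of these are weakly expressed. After the conservative bounds of the folds were centred on the median gene, 16 of the 76 were still called lower, against 13.4% of all genes. Among genes at 5 RPKM or more, 36.1% were called lower and 13.9% higher, and 19 (41.3%) and 2 (4.35%) of the 46 module genes at that level were called. After centring, 11 of the 46 (23.9%) were still called lower, against 25% of all genes at this level. The share of the whole module called lower was thus near the background, and the share called higher was below it. By the RPKM values alone, 9 of the 46 (19.6%) were at least 2-fold lower and 4 (8.70%) at least 2-fold higher at 10 hpf, against 22.4% and 25.2% of all genes at 5 RPKM or more. The remaining 33 lay within 2-fold, and 22 of the 46 had the higher RPKM value at 10 hpf.

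**Figure D1:**
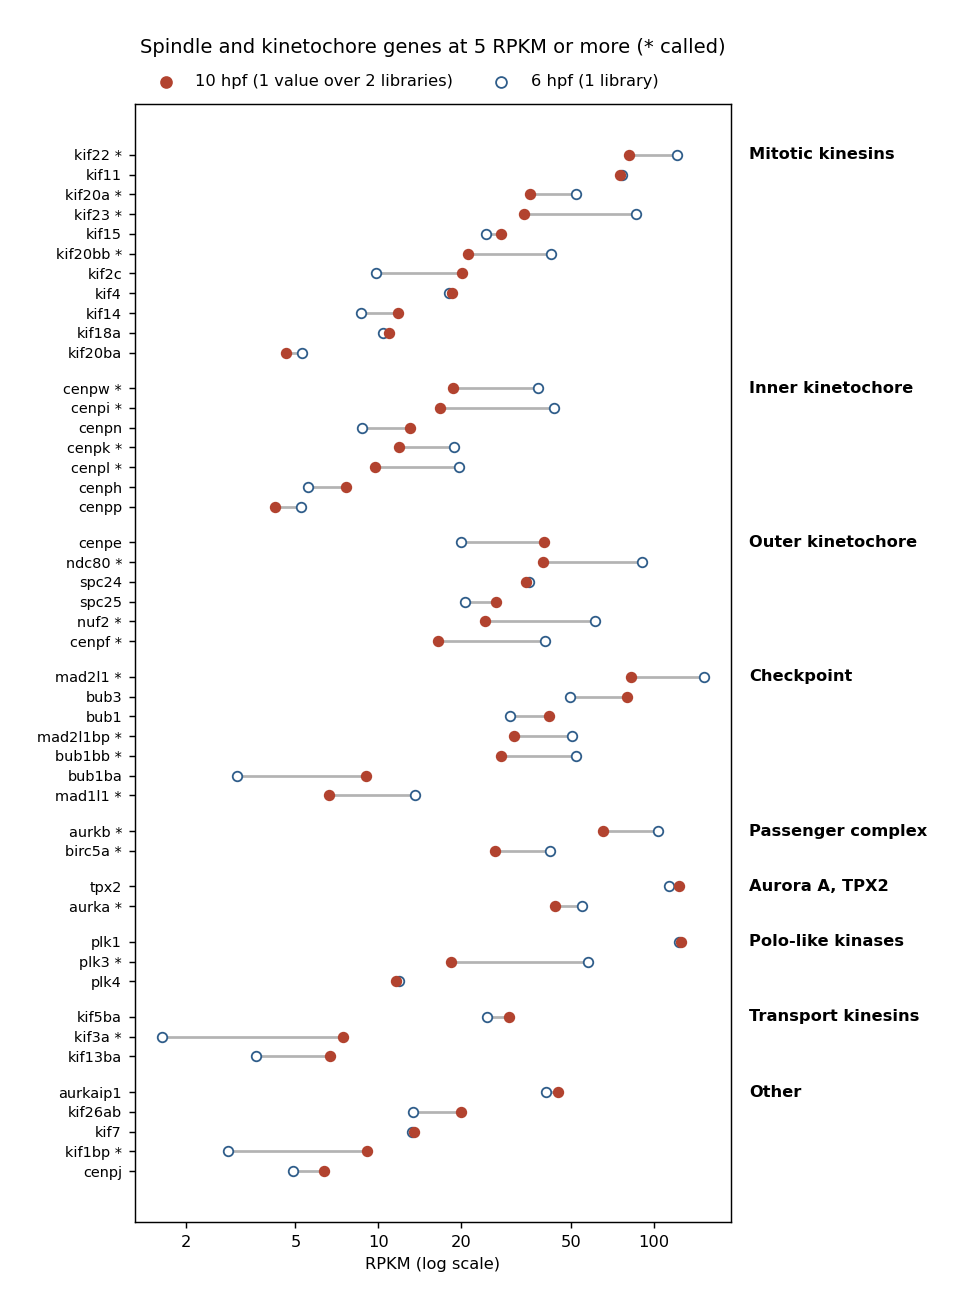
RPKM (log axis) at 10 hpf (filled) and 6 hpf (open) of the 46 genes at 5 RPKM or more at either stage, grouped by role, with a star on genes called in the authors' deposited table. The widest gaps to the left belong to plk3, cenpi, kif23, cenpf, nuf2 and ndc80, the widest to the right to kif3a, kif1bp and bub1ba, and plk1, kif11, kif4, spc24, plk4 and kif7 hardly moved.

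The mitotic kinesins numbered 11, all at 4.61 RPKM or more at 10 hpf, and 4 of them were called lower, 0 higher and 7 not called. Lower calls made up 36.4%, or 18.2% after centring, beside 36.1% and 25% of all genes at 5 RPKM or more, so the count itself is near the background. The 4 that fell were the cytokinesis motors kif23, kif20bb and kif20a and the chromokinesin kif22. Only kif23 and kif20bb kept their call after centring. The cytokinesis gene kif14 and the second kif20b gene, kif20ba, were not called. A split by role was not tested. For the 11 mitotic kinesins the median of log2((10 hpf RPKM + 1)/(6 hpf RPKM + 1)) was −0.03, set beside 0.14 over all genes at 1 RPKM or more. Their summed level was 341 RPKM at 10 hpf and 455 RPKM at 6 hpf.

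Of the cytokinesis motors, kif23, the motor subunit of centralspindlin at the central spindle, had 33.8 RPKM at 10 hpf and 85.9 RPKM at 6 hpf. This was a 2.54-fold fall, for which the authors' deposited table gives −1.94 as log2 fold and −1.07 as conservative bound. For kif20bb, a kinesin-6 gene of the cytokinesis machinery, the values were 21.2 RPKM at 10 hpf and 42.2 RPKM at 6 hpf, a 1.99-fold fall. Another kinesin-6 gene, kif20a, which helps move Aurora B to the midzone in anaphase, had 35.5 RPKM at 10 hpf and 52.2 RPKM at 6 hpf. Its lower call was lost after centring, as was that of the chromokinesin gene kif22, at 81.4 RPKM at 10 hpf and 121 RPKM at 6 hpf. The kinesin-3 family gene kif14, needed for the end of cytokinesis, was not called and had the higher value at 10 hpf, 11.8 RPKM against 8.63 RPKM at 6 hpf. The RPKM values of cytokinesis motors therefore did not all lie on the same side.

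The motors kif11, kif15, kif4 and kif18a were close to level. For kif11 (Eg5), the motor that pushes spindle poles apart, 75.3 RPKM at 10 hpf stood beside 76.6 RPKM at 6 hpf. Its partner in holding the poles apart, kif15, had 27.9 RPKM at 10 hpf and 24.6 RPKM at 6 hpf. The chromokinesin gene kif4 had 18.5 RPKM at 10 hpf and 18.0 RPKM at 6 hpf, and kif18a, which limits the growth of kinetochore microtubules, had 10.9 RPKM at 10 hpf and 10.4 RPKM at 6 hpf. None of these 4 genes was called, and their ratios of 10 hpf to 6 hpf lay between 0.982 and 1.13. Among the mitotic kinesins, the highest ratio of 10 hpf to 6 hpf was that of kif2c (MCAK), a depolymerase that removes faulty attachments. It had 20.1 RPKM at 10 hpf and 9.76 RPKM at 6 hpf. That is 2.06-fold, and it was not called. The second kif20b gene, kif20ba, had 4.61 RPKM at 10 hpf and 5.26 RPKM at 6 hpf and was not called.

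The transport kinesins had lower levels and few calls. Of 21 genes, 2 were called lower, 2 higher and 17 not called in the authors' deposited table, 9.52% in either direction, beside 19.8% lower and 9.7% higher over all genes. At 1 RPKM or more at either stage stood 12 of them, and 11 of these 12 had the higher RPKM value at 10 hpf, by factors of 1.201 to 4.53, as had 55.0% of all genes at 1 RPKM or more. However, kif13a, kif13bb, kif1b, kif21b, kif3b and kif5bb reached 1 RPKM only at 10 hpf, so the minimum level fixed their direction in advance. Without a minimum level the median log2 ratio over the 21 genes was 0.31. Over all 35117 genes it was 0, which is no background for the 21 genes. That 0 is set by genes with equal values at both stages, beside 15994 higher and 11741 lower at 10 hpf. For the 12 genes the median log2 ratio was 0.54 with the pseudocount of 1, and the median of the mitotic kinesins minus this one was −0.56. Both of these values rest partly on the genes that passed only at 10 hpf. Genes are not replicates of a stage, so this gap carries no test. The median level over the 21 genes was 1.04 RPKM at 10 hpf and 0.630 RPKM at 6 hpf, against 21.2 RPKM at 10 hpf and 24.6 RPKM at 6 hpf for the mitotic kinesins.

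**Figure D2:**
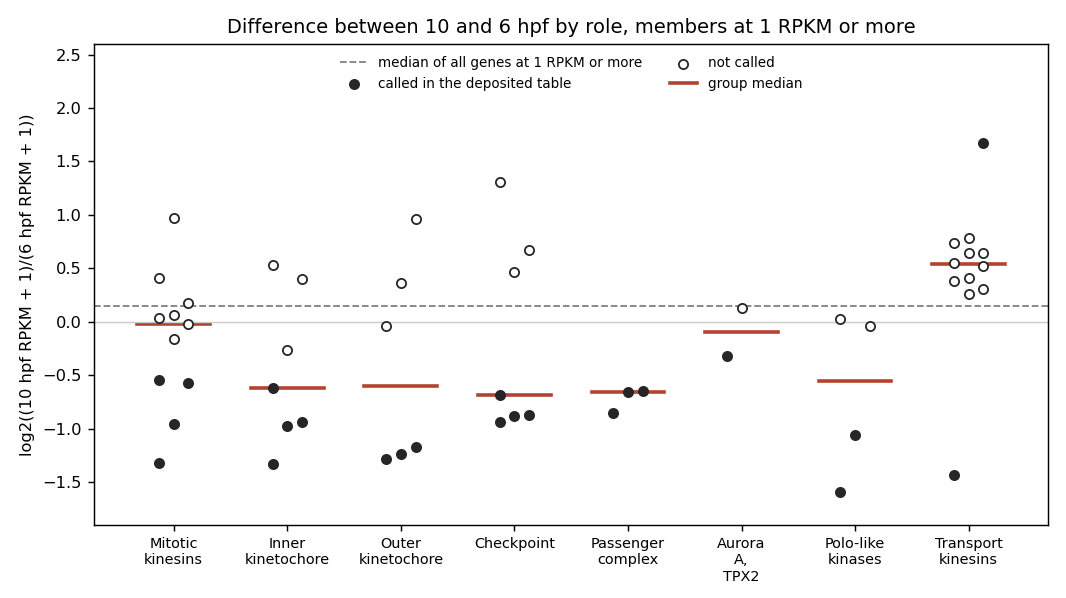
Difference between 10 and 6 hpf, as log2((10 hpf RPKM + 1)/(6 hpf RPKM + 1)), for genes at 1 RPKM or more in each role group. Points are genes, filled where called in the authors' deposited table, bars are group medians and the dashed line is the median of all genes at 1 RPKM or more (0.14). Transport kinesins sit above that line except kif5ab, at −1.44, while points of the kinetochore and checkpoint groups are split, with called genes below and uncalled genes near or above 0. Several transport kinesins reached 1 RPKM only at 10 hpf, which fixed their direction.

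Kinesin-1 genes, which encode the main cargo motor, differed among themselves. The abundant member kif5ba had 29.9 RPKM at 10 hpf and 24.9 RPKM at 6 hpf and was not called, and kif5bb had 1.80 RPKM at 10 hpf and 0.630 RPKM at 6 hpf, also not called. The kif5a genes moved the other way. A 4.42-fold fall was seen for kif5ab, with 1.003 RPKM at 10 hpf and 4.43 RPKM at 6 hpf, and the authors' deposited table gives −2.72 as its log2 fold. The log2 fold of kif5aa was the largest of the module in size, −4.15 in the authors' deposited table, but its levels were 0.0360 RPKM at 10 hpf and 0.788 RPKM at 6 hpf. Before scaling to total reads, these values correspond to 1 read at 10 hpf and 16 reads at 6 hpf, or the same multiple of both. The 10 hpf level thus rests on very few reads. The kif5 genes together summed to 32.9 RPKM at 10 hpf and 30.9 RPKM at 6 hpf, of which kif5ba supplied most at both stages.

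Among the kinesin-2 genes, whose products drive intraflagellar transport, kif3a rose 4.53-fold, with 7.41 RPKM at 10 hpf and 1.64 RPKM at 6 hpf. Its log2 fold was 1.64 in the authors' deposited table. Its motor partner kif3b was not called at 1.54 RPKM at 10 hpf and 0.955 RPKM at 6 hpf, and kif17, kif3ca and kif3cb stayed at or below 0.167 RPKM at both stages. The genes for the shared kinesin-2 accessory subunit lie outside the symbol rule. They were not called, with kifap3a at 2.57 RPKM at 10 hpf and 0.769 RPKM at 6 hpf and kifap3b at 0.880 RPKM at 10 hpf and 0.250 RPKM at 6 hpf.

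The remaining transport kinesins at 1 RPKM or more were not called. The kinesin-3 gene kif13ba had 6.67 RPKM at 10 hpf and 3.60 RPKM at 6 hpf, kif1c had 4.64 RPKM at 10 hpf and 2.62 RPKM at 6 hpf, and kif16ba, for endosome traffic, had 2.58 RPKM at 10 hpf and 1.496 RPKM at 6 hpf. The values of kif1b were 1.39 RPKM at 10 hpf and 0.795 RPKM at 6 hpf, those of kif13a 1.29 RPKM at 10 hpf and 0.559 RPKM at 6 hpf, and those of kif13bb 1.04 RPKM at 10 hpf and 0.651 RPKM at 6 hpf. All of these had the higher value at 10 hpf, and kif1b, kif13a and kif13bb reached 1 RPKM only there. For kif21b the values were 1.23 RPKM at 10 hpf and 0.428 RPKM at 6 hpf. Its relative kif21a was called higher from very low levels, 0.298 RPKM at 10 hpf and 0.0492 RPKM at 6 hpf, where the value at 6 hpf is 0.836 reads per kilobase. The neuronal motor genes kif1aa, kif1ab and kif5c stayed at or below 0.185 RPKM at both stages. Of 4 module genes listed at 0 at 6 hpf (kif1ab, kif3ca, kif16bb and kif26ba), none passed 0.0768 RPKM at 10 hpf.

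Lists of early neuron and cilium genes were set beside the transport kinesins. Of 15 early neuron genes 6 were called higher, 2 lower and 7 not called, where 9.7% of all genes were called higher and 19.8% lower. Their median log2 ratio at 1 RPKM or more was 2.17 over 8 genes, beside 0.14 over all genes. Of these 8, neurog1, elavl3, dlb and isl1 reached 1 RPKM only at 10 hpf, so the minimum level fixed their direction in advance. The others were divided, with dla and tubb5 higher and onecut1 and stmn2a lower at 10 hpf by RPKM. The median therefore does not describe the whole list. The most abundant was the beta-tubulin gene tubb5, which was not called, with 40.9 RPKM at 10 hpf and 17.8 RPKM at 6 hpf. The genes called higher were neurog1, dla, dlb, elavl3, isl1 and neurod4. Of these, the proneural gene neurog1 had 30.3 RPKM at 10 hpf and 0.0422 RPKM at 6 hpf. The neuronal RNA-binding protein gene elavl3 had 4.64 RPKM at 10 hpf and 0.178 RPKM at 6 hpf. Called lower were stmn2a, with 0.512 RPKM at 10 hpf and 2.72 RPKM at 6 hpf, and onecut1. For onecut1 the values were 5.19 RPKM at 10 hpf and 9.98 RPKM at 6 hpf. Among elavl4, gap43, neurod1, snap25a, snap25b and stmn2b, the highest value was 0.355 RPKM, of stmn2b at 6 hpf. Of 14 cilium genes 3 were called higher, 1 lower and 10 not called, with a median log2 ratio of 0.71 over 11 genes. Some of these cilium genes too reached 1 RPKM only at 10 hpf. Both lists hold many weakly expressed genes, and of all genes at 1 RPKM or more 16.3% were called higher and 32.9% lower. The most abundant, the ciliary transcription factor gene rfx2, had 17.3 RPKM at 10 hpf and 14.7 RPKM at 6 hpf and was not called. The part of such cells in the values of the transport kinesins was not tested.

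Kinesins of cilia and Hedgehog signalling and the atypical members completed the family. The Hedgehog regulator kif7, at the tip of the cilium, was level at 13.5 RPKM at 10 hpf and 13.2 RPKM at 6 hpf. The cilium-length gene kif19 was called higher, with 1.54 RPKM at 10 hpf and 0.294 RPKM at 6 hpf, and kif6 was called lower, but not after centring, with 0.527 RPKM at 10 hpf and 0.955 RPKM at 6 hpf. Of the kif26 genes, which encode atypical kinesins, kif26ab had 19.9 RPKM at 10 hpf and 13.3 RPKM at 6 hpf and was not called, while its duplicate kif26aa was called lower at 0.168 RPKM at 10 hpf and 0.557 RPKM at 6 hpf. Also uncalled and below 1 RPKM were kif25, with 0.619 RPKM at 10 hpf and 0.180 RPKM at 6 hpf, kif28, with 0.118 RPKM at 10 hpf and 0.1296 RPKM at 6 hpf, and kif26bb, with 0.0135 RPKM at 10 hpf and 0.0369 RPKM at 6 hpf. The symbol kif1bp stands for a kinesin-binding protein and not for a motor. It rose 3.19-fold, with 9.10 RPKM at 10 hpf and 2.85 RPKM at 6 hpf, and its conservative bound of 0.07 in the authors' deposited table was the smallest of all calls in the module.

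Kinetochore and checkpoint genes held 11 of the 25 lower calls. Of 21 genes of the inner kinetochore, the outer kinetochore and the checkpoint, 11 were called lower, 0 higher and 10 not called in the authors' deposited table. At 5 RPKM or more stood 20 of them, and the 11 lower calls among these (55%, or 40% for the 8 kept after centring) compare with 36.1% and 25% of all genes at that level. Their median log2 ratio was −0.66. The lower calls were spread over all 3 layers, and each layer also held genes that did not fall. Kinetochore genes that the symbol rule did not match are left out of these shares. Among them CENPX, zwilch, kntc1 and the gene listed as ska2 were called higher. The genes casc5, spdl1 and the centromere gene sgo2 were called lower, but only spdl1 also after centring. Not called were cenpt, cenpu, CENPS, mis12, dsn1, nsl1, ttk, zw10, ska1, ska3 and sgo1. Most of these unmatched genes were thus not called lower. The shares therefore describe the matched genes only and not kinetochore genes as a class.

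The NDC80 complex is the rod of 4 proteins that grips microtubules, with NDC80 and NUF2 at the microtubule end and SPC24 and SPC25 at the chromosome end. By their calls its subunits split along that line, which was not tested. At the microtubule end, ndc80 fell 2.28-fold, with 39.7 RPKM at 10 hpf and 90.5 RPKM at 6 hpf, and nuf2 fell 2.50-fold, with 24.4 RPKM at 10 hpf and 60.9 RPKM at 6 hpf. At the chromosome end, spc24 had 34.2 RPKM at 10 hpf and 35.1 RPKM at 6 hpf, and spc25 had 26.7 RPKM at 10 hpf and 20.6 RPKM at 6 hpf, neither called. The conservative bounds of both falls were −1.01 in the authors' deposited table. The highest of the 4 subunits stood 1.63-fold above the lowest at 10 hpf and 4.39-fold above it at 6 hpf. The transcript levels of this complex thus lay closer together at the later stage, which was not so for every set of partners. For cenpe and cenpf the factor was 2.42 at 10 hpf and 2.02 at 6 hpf. For aurka and tpx2 it was 2.82 at 10 hpf and 2.06 at 6 hpf.

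Of the large proteins of the fibrous corona, cenpf fell 2.44-fold, with 16.5 RPKM at 10 hpf and 40.3 RPKM at 6 hpf. For cenpe, itself a kinesin that carries chromosomes to the spindle equator, 39.9 RPKM at 10 hpf and 19.97 RPKM at 6 hpf were listed, 2.0-fold higher but not called. The sum of both was 56.5 RPKM at 10 hpf and 60.2 RPKM at 6 hpf. Their order was thus turned round between the stages while the sum stayed similar.

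**Figure D3:**
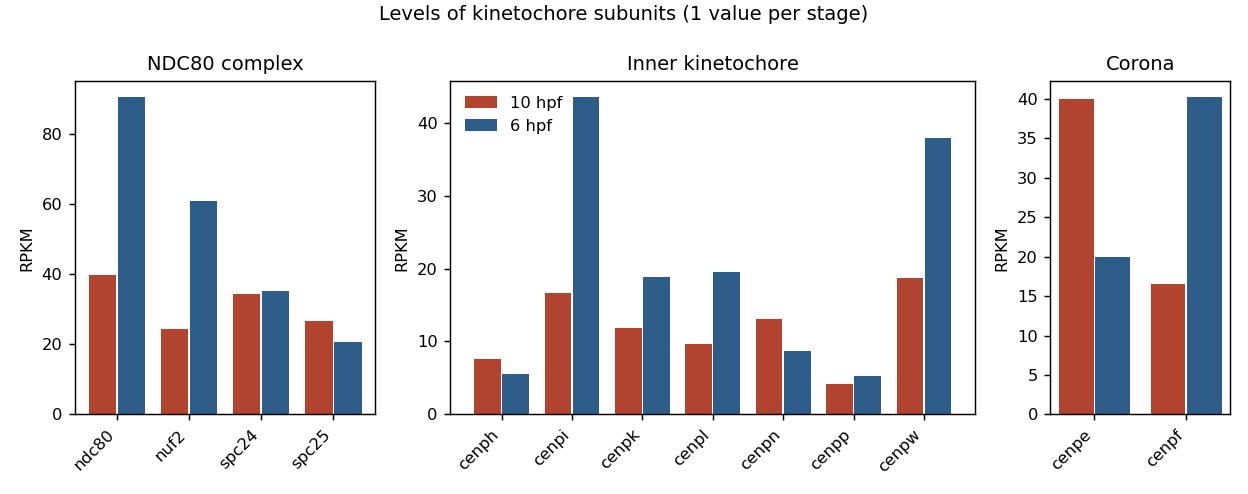
RPKM of the NDC80 complex, of inner kinetochore genes at 5 RPKM or more at either stage, and of the corona genes, with 10 hpf bars left of 6 hpf bars and a separate linear axis from 0 in each panel. Bars of ndc80, nuf2, cenpi, cenpk, cenpl, cenpw and cenpf are shorter at 10 hpf and called, while those of spc25, cenph, cenpn and cenpe are taller at 10 hpf and not called.

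The inner kinetochore proteins, known as the constitutive centromere-associated network, bind the centromeric nucleosome throughout the cell cycle. Of 8 such genes 4 (50%) were called lower, 3 of them also after centring, and 4 were not called. Over all genes 19.8% were called lower, or 13.4% after centring. At 5 RPKM or more, where 7 of the 8 stood, these shares of all genes were 36.1% and 25%. So small a count says little about the network. The largest fall was that of cenpi, 2.61-fold, with 16.7 RPKM at 10 hpf and 43.5 RPKM at 6 hpf. It belongs to the same subcomplex as cenpk, which had 11.9 RPKM at 10 hpf and 18.9 RPKM at 6 hpf and lost its call after centring, and cenph, which was not called at 7.63 RPKM at 10 hpf and 5.53 RPKM at 6 hpf. These 3 genes lay within a factor of 2.19 at 10 hpf and 7.87 at 6 hpf.

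The genes of the partners CENP-L and CENP-N lay within a factor of 1.35 at 10 hpf and 2.25 at 6 hpf. A 2.02-fold fall was seen for cenpl, with 9.69 RPKM at 10 hpf and 19.5 RPKM at 6 hpf, while cenpn had 13.04 RPKM at 10 hpf and 8.69 RPKM at 6 hpf and was not called. The histone-fold gene cenpw fell 2.02-fold, with 18.7 RPKM at 10 hpf and 37.8 RPKM at 6 hpf. For cenpp 4.21 RPKM at 10 hpf and 5.24 RPKM at 6 hpf were listed, and cenpo stayed below 1 RPKM, at 0.911 RPKM at 10 hpf and 0.151 RPKM at 6 hpf. Neither was called.

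Some genes of the same network carry other symbols in the table and were matched by their current symbol. CENP-W pairs with the product of cenpt (ENSDARG00000091271), which was not called at 12.4 RPKM at 10 hpf and 17.4 RPKM at 6 hpf. The other histone-fold pair of the network gave unlike values: CENPX, listed as stra13, rose 7.26-fold, with 22.4 RPKM at 10 hpf and 3.08 RPKM at 6 hpf, and CENPS, listed as apitd1, was level at 30.91 RPKM at 10 hpf and 31.04 RPKM at 6 hpf. For cenpu (ENSDARG00000088924) the values were 8.73 RPKM at 10 hpf and 6.19 RPKM at 6 hpf, not called. The cenp symbols of other functions, both uncalled, were the centriole gene cenpj, with 6.34 RPKM at 10 hpf and 4.89 RPKM at 6 hpf, and cenpv, with 2.31 RPKM at 10 hpf and 0.753 RPKM at 6 hpf.

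Of 7 spindle assembly checkpoint genes, all at 5 RPKM or more, 4 (57.1%) were called lower, 2 of them also after centring, and 3 were not called. Of all genes at that level 36.1% were called lower, or 25% after centring, so this small count says little about the checkpoint. The MAD genes were lower: mad2l1, whose product seizes the activator of the anaphase-promoting complex, fell 1.84-fold, with 82.8 RPKM at 10 hpf and 152 RPKM at 6 hpf. Its kinetochore anchor mad1l1 fell 2.05-fold, with 6.597 RPKM at 10 hpf and 13.5 RPKM at 6 hpf. The gene mad2l1bp, whose product p31comet silences the checkpoint, had 30.9 RPKM at 10 hpf and 50.5 RPKM at 6 hpf, and its lower call was lost after centring. Members of both signs of action on the checkpoint were therefore among the lower ones.

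The BUB genes were divided. For bub3, a WD-repeat adaptor, 79.8 RPKM at 10 hpf and 49.6 RPKM at 6 hpf were listed, and for the kinase gene bub1 41.7 RPKM at 10 hpf and 30.01 RPKM at 6 hpf. Neither was called, and both had the higher value at 10 hpf. The duplicated genes of BUBR1 differed in the sign of their RPKM difference and lay closer together at 10 hpf, within a factor of 3.07, than at 6 hpf, within 17.0. A lower call of bub1bb, at 27.8 RPKM at 10 hpf and 52.1 RPKM at 6 hpf, was lost after centring, and bub1ba had 9.04 RPKM at 10 hpf and 3.06 RPKM at 6 hpf, 2.95-fold higher but not called. The share of bub1ba in their summed level was 24.6% at 10 hpf and 5.55% at 6 hpf.

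**Figure D4:**
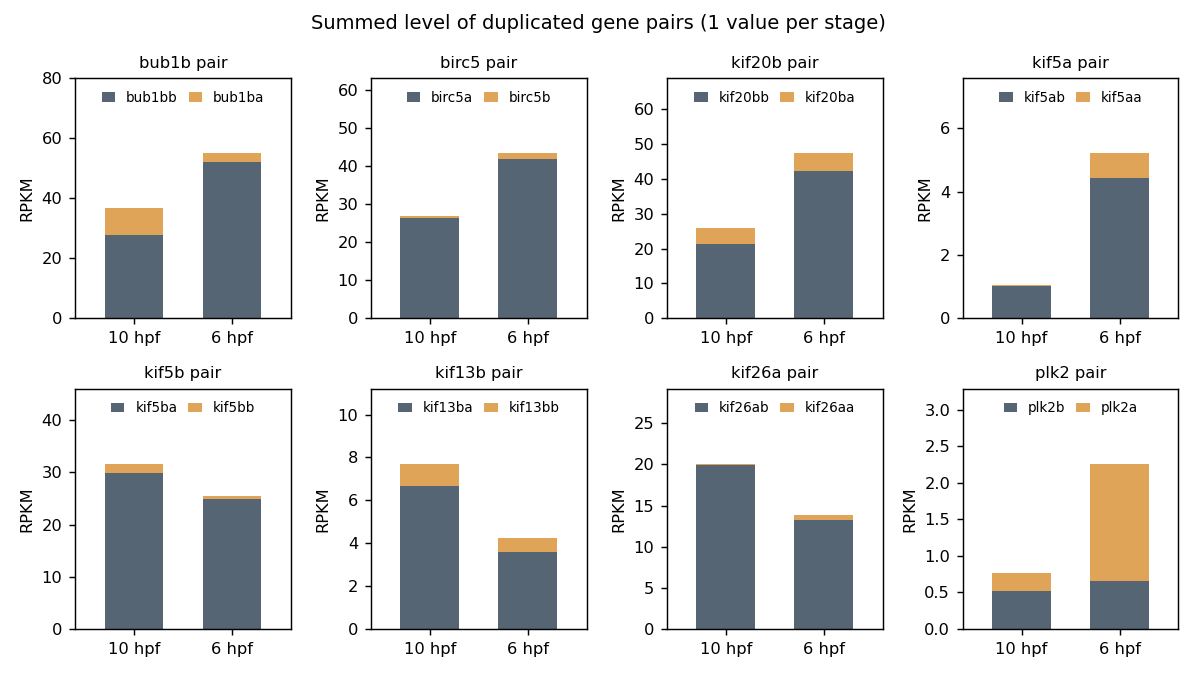
Stacked RPKM of duplicated gene pairs at 10 hpf (left bar) and 6 hpf (right bar), with a separate linear axis from 0 in each panel. At both stages 1 copy supplies most of the level in the bub1b, birc5, kif20b, kif5a, kif5b, kif13b and kif26a pairs, and in the low plk2 pair the larger copy is plk2b at 10 hpf and plk2a at 6 hpf.

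In several other pairs 1 copy supplied most of the level at both stages. In the kif20b pair, kif20bb supplied 82.1% of the summed RPKM at 10 hpf and 88.9% at 6 hpf. In the survivin pair, birc5a supplied 98.6% at 10 hpf and 96.6% at 6 hpf, and in the kif13b pair kif13ba supplied 86.5% at 10 hpf and 84.7% at 6 hpf. Close copies can share reads, and the labels do not say how the counting treated these, so the split within a pair is uncertain. The plk2, kif3c and kif26b pairs, all at low levels, had another leading copy at 10 hpf than at 6 hpf, with plk2a at 32.4% of its pair at 10 hpf and 70.9% at 6 hpf.

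The chromosomal passenger complex corrects attachments at centromeres and then guides cytokinesis, and its 3 genes in the module were called lower, 1 of them also after centring. Beside 32.9% of all genes at 1 RPKM or more called lower, or 22.8% after centring, so small a count says little about the complex. Its kinase gene aurkb, known in zebrafish from the maternal-effect mutant cellular island, had 65.5 RPKM at 10 hpf and 104 RPKM at 6 hpf, and the survivin gene birc5a had 26.4 RPKM at 10 hpf and 42.0 RPKM at 6 hpf. Both values were lower at 10 hpf by the same factor, 1.59, and both calls were lost after centring. The other survivin gene, birc5b, known from the maternal-effect mutant motley, was called lower also after centring, with 0.3799 RPKM at 10 hpf and 1.49 RPKM at 6 hpf. These birc5b values stand to each other as 8 reads to 23 reads or a multiple. A further subunit outside the symbol rule, borealin (cdca8), was not called at 28.1 RPKM at 10 hpf and 26.6 RPKM at 6 hpf. The symbol incenp was part of the rule but matched no gene.

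Aurora A, which matures centrosomes, is activated on the spindle by TPX2. The kinase gene aurka had 43.7 RPKM at 10 hpf and 54.8 RPKM at 6 hpf, and its lower call, at a factor of 1.25, was lost after centring. As given above, tpx2 was level and not called. An Aurora A activator outside the symbol rule, bora, fell 2.55-fold, with 12.5 RPKM at 10 hpf and 31.8 RPKM at 6 hpf. The mitochondrial protein gene aurkaip1, in the module by its name alone, had 45.04 RPKM at 10 hpf and 40.4 RPKM at 6 hpf and was not called.

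Of 5 Polo-like kinase genes, 2 (40%) were called lower, both also after centring, and 3 were not called. Over all genes 19.8% were called lower, or 13.4% after centring. At 1 RPKM or more stood 4 of the 5, with both lower calls, beside 32.9% and 22.8% of all genes at that level. So small a count says little about the family. The genes of mitosis and centriole duplication were level: plk1 as given above, and plk4, which starts centriole duplication, with 11.6 RPKM at 10 hpf and 11.9 RPKM at 6 hpf. Of the stress-linked members, plk3 fell 3.13-fold, with 18.4 RPKM at 10 hpf and 57.5 RPKM at 6 hpf, the largest fall among module genes at 5 RPKM or more, and the authors' deposited table gives −2.21 as its log2 fold. Its relative plk2a fell 6.50-fold at low level, with 0.247 RPKM at 10 hpf and 1.61 RPKM at 6 hpf, as 4 reads stand to 19 reads or a multiple, and plk2b was not called at 0.517 RPKM at 10 hpf and 0.658 RPKM at 6 hpf. In the sum over the 5 genes, 156 RPKM at 10 hpf and 195 RPKM at 6 hpf, plk1 supplied 80.3% at 10 hpf and 63.2% at 6 hpf.

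**Figure D5:**
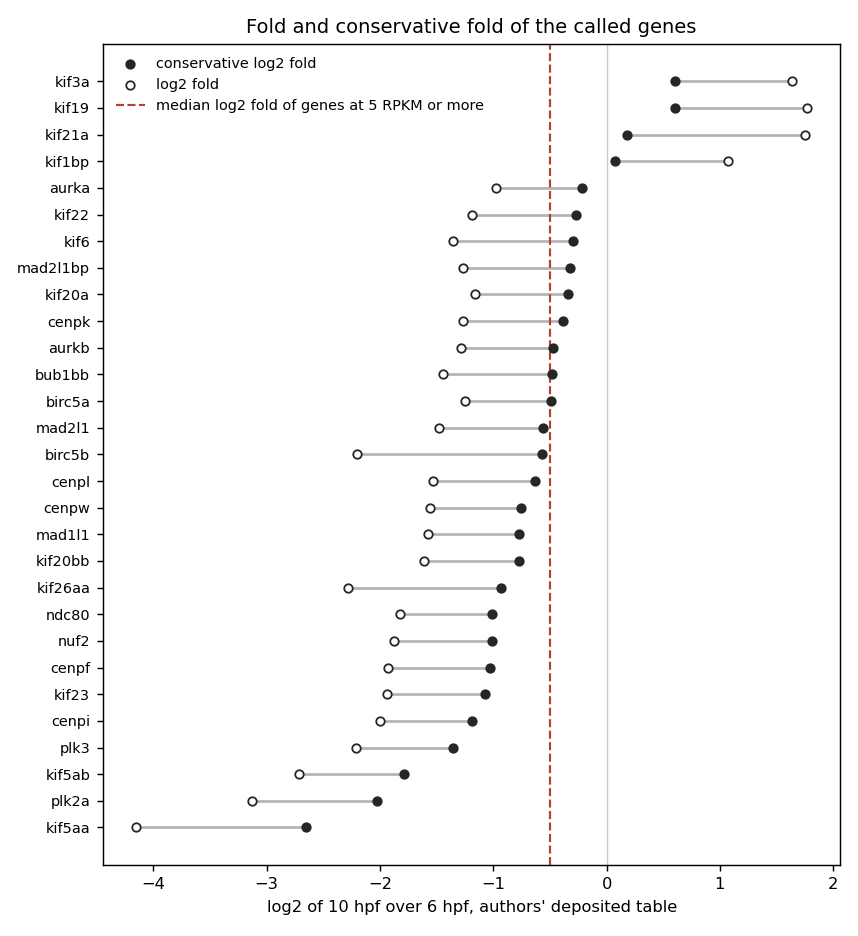
Log2 fold of 10 hpf over 6 hpf (open) and its conservative bound (filled) in the authors' deposited table for the 29 called genes, with the median fold of genes at 5 RPKM or more (−0.50) as a dashed line. The 16 genes from mad2l1 down have bounds left of the line and keep their lower call after centring, whereas the 9 from aurka to birc5a lie between the line and 0, and kif3a, kif19, kif21a and kif1bp lie above 0.

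Calls and RPKM values were read together because of the offset between the scales. Among the 46 genes at 5 RPKM or more, the 19 called lower had RPKM ratios of 10 hpf to 6 hpf between 0.319 and 0.798, and the 25 not called had ratios between 0.803 and 2.95. The genes called higher at that level, kif3a and kif1bp, had ratios of 3.19 or more. An uncalled gene such as bub1ba, kif2c or cenpe is therefore not shown to be unchanged. The 9 lower calls lost after centring were those of aurka, aurkb, birc5a, bub1bb, cenpk, kif20a, kif22, kif6 and mad2l1bp.

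A list of 61 further kinetochore, spindle and mitosis genes outside the symbol rule was counted in the same way. Of these 18 were called lower, 11 of them also after centring, 6 were called higher and 37 were not called in the authors' deposited table. One of the higher calls, listed as TUBGCP6, has the current symbol appl2 and may not be a spindle gene. The highest ratio among the higher calls, 9.94-fold, was that of kntc1, a kinetochore gene at 2.38 RPKM at 10 hpf and 0.239 RPKM at 6 hpf. At 5 RPKM or more, 32.7% of 55 were called lower, near the 36.1% of all genes, or 20% after centring, beside 25%. Higher calls made up 9.84% of the 61, beside 9.7% of all genes. At 5 RPKM or more they made up 9.09%, beside 13.9%, so their count is near or below the background. Among genes at 5 RPKM or more, the largest falls after bora were those of the securin gene pttg1, with 10.8 RPKM at 10 hpf and 26.2 RPKM at 6 hpf, and of the spindle gene nusap1, with 47.3 RPKM at 10 hpf and 103 RPKM at 6 hpf. Among genes at 5 RPKM or more, the largest rises were those of ska2, prc1b and zwilch. The gene listed as ska2, a subunit of a kinetochore coupler, had 16.5 RPKM at 10 hpf and 1.96 RPKM at 6 hpf. Its identifier had no current symbol, so that name was not checked. The central spindle gene prc1b had 12.4 RPKM at 10 hpf and 2.39 RPKM at 6 hpf. The other PRC1 gene, prc1a, was more abundant and was called lower, also after centring, with 55.9 RPKM at 10 hpf and 100 RPKM at 6 hpf. For zwilch, which helps recruit dynein to kinetochores, the values were 11.2 RPKM at 10 hpf and 2.53 RPKM at 6 hpf. The most abundant was the cyclin gene ccnb1, which fell 1.80-fold, with 109 RPKM at 10 hpf and 196 RPKM at 6 hpf. This wider list was thus divided as well, and its median log2 ratio of 0.06 lay near 0.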

How the data were processed

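Zebrafish whole-embryo RNA-seq was used, from 2 libraries at 10 hpf and 1 library at 6 hpf. The submitters' processing notes name TopHat2 2.1.1 and the genome build GRCz10. For the read counter, annotation, strand handling and filters, nothing is stated in the sources used here. Per the file headers, the authors deposited 1 RPKM value per stage. Also per the file headers, the authors deposited a log2 fold, a conservative log2 fold (GFOLD, setting 0.01) and an empirical false discovery rate, which is read like an adjusted p-value.

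From these values, ratios, medians, sums and counts of calls were computed with pandas 2.3.3 in Python 3.11.15. Log2 ratios of RPKM have a pseudocount of 1, and fold changes given in the text have none. Medians use genes at 1 RPKM or more at either stage. The pseudocount understates the change of low genes. Centring subtracted the median deposited log2 fold (−0.50, over genes with at least 5 RPKM at either stage) from each conservative bound. A call was kept if the centred bound had the sign of the call, which can remove lower calls and add no higher ones. Totals of reads were inferred from 5S rRNA genes, whose values of a single read imply whole lengths within 0.01 bases for 100% of values at both stages. Ratios of whole reads given for low genes were matched within 0.00015 of the ratio. A simulated table without noise was used to check that the code for calls and centring returned planted folds. It does not test the deposited calls, the read totals or the lists.

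The genes and lists were chosen with earlier results of these data known, so no list serves as independent support. Module genes were named throughout, those at 5 RPKM or more in full. From the wider mitosis list, the 3 called genes with the largest deposited fold in each direction at 5 RPKM or more and the most abundant gene were named, and from the neuron and cilium lists the most abundant. The genes kifap3a, kifap3b, cdca8, kntc1, casc5, spdl1, sgo2, TUBGCP6 and the early neuron genes other than tubb5 were added after their values were seen. So were mis12, dsn1, nsl1, ttk, zw10, ska1, ska3, sgo1 and prc1a. Of the genes matched by a current symbol or in capitals, outside the symbol rule, KIF2A, KIF9, KIF1C and MAD2L2 were not called. No sequences are shown.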

Additional observations from a re-analysis of the deposited data

How the results depend on the processing

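Counts of lower calls over all 76 genes were 24 or 25 with a false discovery rate under 0.01 or an absolute log2 fold of at least 1, and 16 after centring. For mitotic kinesins the 4 lower calls became 2 after centring. Kinetochore and checkpoint genes of the module had 8 to 11 lower and 0 higher calls under the alternatives run. Higher calls numbered 2 over all 76 genes and 1 among transport kinesins with a false discovery rate under 0.01. They numbered 2 and 1 with a minimum of 5 RPKM. Transport kinesins had 1 lower and 1 higher call with a minimum of 1 RPKM, and 0 lower with a minimum of 5 RPKM.

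On the deposited log2 fold, whose median over all genes was −0.41, the medians were −0.56 for all members, −0.67 for mitotic kinesins, 0.23 for transport kinesins and −1.27 for kinetochore and checkpoint genes. Centred on all genes at 1 RPKM or more they were −0.11, −0.17, 0.39 and −0.80. The transport median was 0.77 with a pseudocount of 0.1, 0.21 with 5, 0.31 without a minimum level and 0.74 at 5 RPKM or more. The all-member median changed sign, 0.03 against −0.03 at 5 RPKM or more, and no direction is given for it. The gap between mitotic and transport kinesins was −0.53 with KIF2A or with cenpe among the mitotic kinesins, and −0.56 without the kinesin-2 genes.

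Medians were regarded as moved beyond 0.1 on the log2 scale. The cause was not tested. No paired analysis was possible because the 10 hpf libraries share 1 value, and no fit without a library was run for the same reason. Depth limits genes below about 1 RPKM, such as kif5aa, kif21a and plk2a.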
